A study of Rattus norvegicus with 9 samples.

Results

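The genes described here encode the main enzymes that remove superoxide and peroxides in mammalian cells. They are the superoxide dismutases Sod1, Sod2, and Sod3, catalase (Cat), the glutathione peroxidases Gpx1, Gpx3, and Gpx4, the subunits Gclc and Gclm of glutamate-cysteine ligase, and the quinone reductase Nqo1. Members were all non-control probes whose gene name in the array files equals 1 of these 10 symbols. They gave 11 of the 30367 probes and 10 of the 19293 gene symbols on the array. Gpx4 has 2 probes, and its brighter one represents the gene. Of the 10 genes 9 were bright enough for a test, among 15596 symbols tested, and Gclm was not.

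Gene expression was measured on 9 one-color Agilent arrays of brain from male Sprague Dawley rats at day 14, with 3 arrays each for the Sham, I/R, and DHI groups. Sham rats had the operation without ischemia. I/R rats had the middle cerebral artery closed by a nylon suture for 2 h and then reopened. DHI rats had the same ischemia and reperfusion and received Danhong injection, an extract of the plants danshen and safflower, by the tail vein. By the methods the injections were daily from the surgery on and Sham rats received the solvent, whereas the labels leave the timing unclear and name no such control injection. All groups ate normal chow, and the methods place the tissue in the infarcted hemisphere. The study describes a group's arrays as biological replicates, and the labels name no animals. In such bulk tissue, fewer cells of a type and less RNA per cell cannot be told apart.

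Superoxide, which leaks from mitochondria and is made by activated phagocytes, is turned into hydrogen peroxide by the superoxide dismutases. Catalase and the glutathione peroxidases then reduce the peroxide, and the peroxidases use glutathione, whose first step of synthesis is run by glutamate-cysteine ligase. Many of these genes can be induced by the transcription factor NRF2 (Nfe2l2), which KEAP1 holds at a low level in unstressed cells. Reperfusion of ischemic brain is a well known source of such oxidants.

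The probes that carry the results are shown by 30 of their 60 bases, to show which stretch of each transcript was read. Sequences are as the files list them, 5′ to 3′, and the coordinates are those of the whole probe on the rn4 build. The Gpx4 pair reads 2 separate stretches of 1 transcript. In its brighter probe, capitals mark the polyadenylation signal near the transcript's end, and in the Gclm probe they mark a run of 11 A or T bases. The Sod2 probe has a run as long, outside the bases shown.
Sod2, chr1:41863005-41863064, first 30 bases: gtcagcaaccccaggcatgcacattacttc
Sod3, chr14:63381466-63381525, first 30 bases: tgcctgcaccccaaggagagcagctcctcc
Gpx1, chr16_random:1046407-1046466, first 30 bases: cggggggaggtttttccatgacggtgtttc
Gpx4, brighter probe, chr7:11162522-11162581, last 30 bases: tgccttgtgggAATAAAatgtagaaatgtg
Gpx4, dimmer probe, chr7:11163817-11163876, first 30 bases: aggagtttgcagccggctacaatgtcaggt
Gclm, chr2:218915215-218915274, first 30 bases: atatatttccTTTATTTTTATgagtaatag
Nqo1, chr19:37251727-37251786, first 30 bases: ttcaagaggagcagaaaaagaacaagtttg
The transcripts of 10 of the 10 genes matched the RefSeq gene table under the same symbol. That table places Gpx1 on chromosome 8 of the GRCr8 assembly, whereas the files place its probe on chr16_random of rn4. The Cat and Gpx3 probes span 1945 and 1468 genomic bases, so each crosses a splice junction, and the others lie in 1 block of 60 bases. Exons and UTRs were not annotated here.

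Values are log2 intensities minus that of the array's 75th percentile, so 0 is a probe at that percentile. They compare groups for 1 probe and not 1 gene with another. The 75th percentile ranged from 1816 to 3464 intensity units, 75.2% to 78.9% of an array's probes stood well above background, and saturation was not seen. A tested probe was called when limma gave an unadjusted p under 0.05 and a fold change (FC) over 1.5, and the Benjamini-Hochberg adjusted p over the 23747 tested probes is given beside it. Sham and I/R shared slide 1 whereas all DHI arrays came from slide 2, so slide and DHI cannot be told apart. Over all tested probes, with the Sham mean at 0 and the I/R mean at 1, DHI 1 lay at 0.92, while DHI 2 and DHI 3 lay at -0.01 and 0.18. I/R 3 lay at 0.58, below I/R 1 (1.24) and I/R 2 (1.1). DHI 1 thus lay with the I/R arrays and apart from the other DHI arrays, so DHI means combine unlike arrays. A mixed-up sample and an animal with little response cannot be told apart here. For the members, results in which these arrays matter are given with and without them. The differences of single pathway genes are given with all arrays only. The spots of a member's probe on 1 array differed by a median SD of 0.02 to 0.05, for the probes with over 1 spot.

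In I/R versus Sham, which asks what ischemia and reperfusion left at day 14, the antioxidant enzymes moved in both directions. Sod3, Gpx1, and Nqo1 rose and Sod2 fell, which makes 4 of the 9 genes tested. Of all probes, 43.1% were called in this comparison at the unadjusted threshold and 31.5% at the adjusted one. The same 4 genes, 44.4% of those tested, passed both. That share was close to the array's at the unadjusted threshold, and above it at the adjusted one, among only 9 genes. On this scaling the groups did not overlap for 6 of the 9, against 62.5% of all probes. The median log2 fold change of the members was 0.56 and that of all probes was -0.10.

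**Figure D1:**
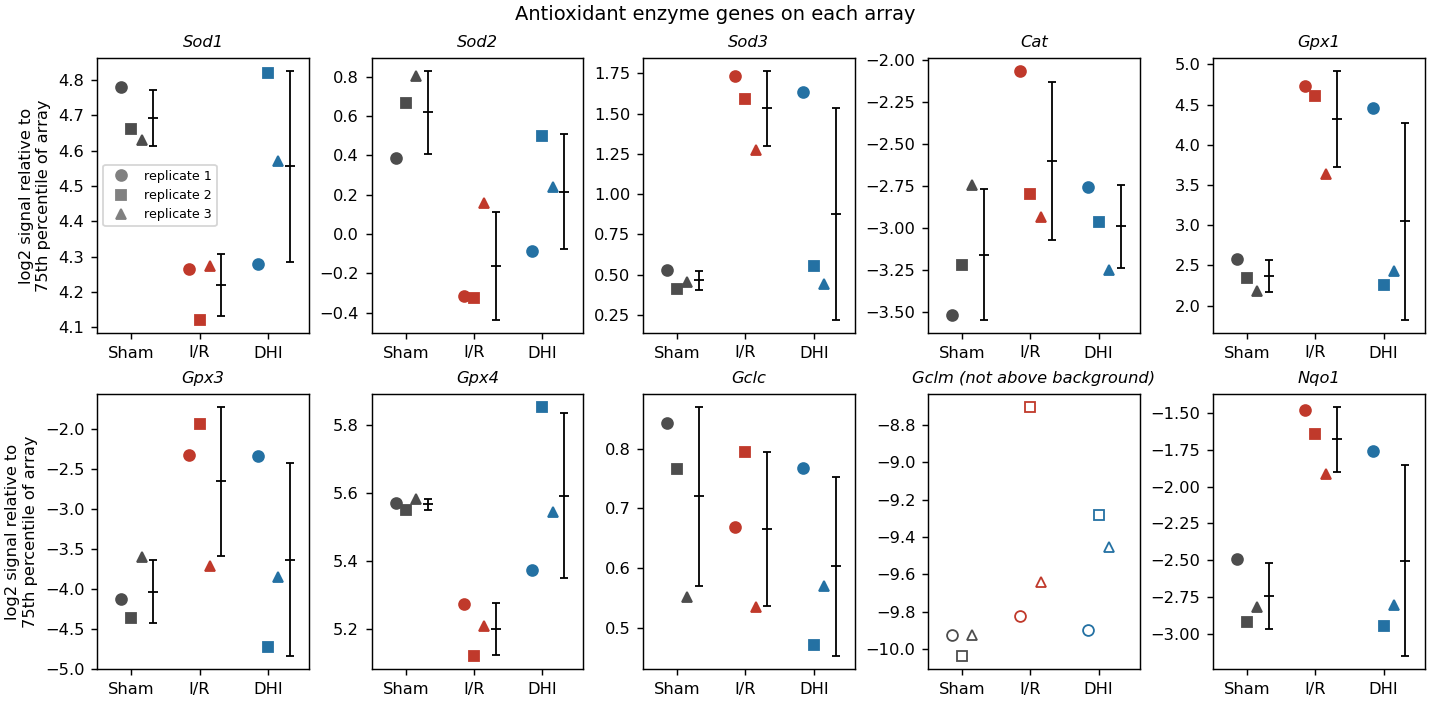
Log2 signal, with each array's 75th percentile at 0, for the 10 genes, with 1 point per array (circle, square, and triangle for replicates 1, 2, and 3) and a bar for the group mean ± SD (n = 3). Each panel has its own axis. Gpx1 lay between 2.18 and 2.58 in Sham and between 3.63 and 4.73 in I/R, and DHI 1 lay at 4.46. The open symbols of Gclm were not well above background on any array.

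The 3 superoxide dismutases differ in where they work. Sod1 encodes the copper-zinc enzyme of the cytosol. Its values were 4.78, 4.66, and 4.63 on Sham 1, 2, and 3, 4.27, 4.12, and 4.27 on the I/R arrays, and 4.28, 4.82, and 4.57 on the DHI arrays. On this scaling the I/R arrays were all below the Sham arrays, and DHI 1 lay just above I/R while DHI 2 exceeded every Sham array. The log2 fold change in I/R versus Sham was -0.47 ± 0.17 (SE, Benjamini-Hochberg adjusted p = 0.0607 by limma). The unadjusted p was under 0.05, but the 1.39-fold difference was under the FC threshold. Without scaling between arrays the difference was -0.27 (limma unadjusted p = 0.147). Under normexp background correction it was -0.31 (limma unadjusted p = 0.0467).

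Sod2 encodes the manganese enzyme of the mitochondrial matrix. It read 0.39, 0.67, and 0.80 on the Sham arrays, -0.32, -0.33, and 0.16 on the I/R arrays, and -0.09, 0.50, and 0.24 on the DHI arrays. On this scaling each I/R array was below each Sham array, and DHI arrays spread over both ranges. Without scaling, I/R 3 at 3859 intensity units was above Sham 1 at 3360. Sod2 fell by 0.78 on the log2 scale in I/R (SE 0.22, 1.72-fold lower, adjusted p = 0.0405 by limma), and it was the only superoxide dismutase called lower. Without scaling between arrays the difference was -0.59 (limma unadjusted p = 0.0474, adjusted p = 0.109). Under normexp background correction it was also -0.59 (limma unadjusted p = 0.0259, adjusted p = 0.0695). Both values were only just past the FC threshold.

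Sod3 encodes the secreted, extracellular enzyme. Its Sham values of 0.53, 0.41, and 0.46 were close together, and the I/R values were 1.73, 1.59, and 1.27. On the DHI arrays it read 1.63, 0.55, and 0.44. All I/R arrays were above all Sham arrays. DHI 1 was within the I/R range, DHI 3 was within the Sham range, and DHI 2 just above it. The rise in I/R was 1.07 ± 0.31 (SE, 2.10-fold, adjusted p = 0.0413 by limma). On this scaling the mRNAs of the mitochondrial and the extracellular dismutase thus moved in opposite directions in the same 3 I/R samples. Without scaling, Sod2 on I/R 3 lay within the Sham range.

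Catalase breaks down hydrogen peroxide in peroxisomes. Cat read -3.52, -3.22, and -2.74 in Sham, -2.06, -2.80, and -2.94 in I/R, and -2.76, -2.96, and -3.25 in DHI. The Sham and I/R arrays overlapped, since Sham 3 was above I/R 2 and I/R 3. The difference of 0.56 had a 95% confidence interval from -0.12 to 1.24 (limma adjusted p = 0.156).

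Gpx1, the abundant cytosolic glutathione peroxidase, had the largest fold change of the 9 tested members. It read 2.58, 2.35, and 2.18 in Sham, 4.73, 4.61, and 3.63 in I/R, and 4.46, 2.25, and 2.42 in DHI. No I/R array overlapped Sham, DHI 1 was between the I/R values, and DHI 2 and DHI 3 were in the Sham range. Gpx1 rose by 1.95 ± 0.58 (SE, 3.88-fold, adjusted p = 0.0419 by limma) in I/R. This value rests on 10 spots per array, with 3 of 90 spot readings left out as outliers.

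Gpx3, the glutathione peroxidase secreted into plasma, spread more widely within I/R and DHI. Sham values were -4.13, -4.37, and -3.60, I/R values were -2.32, -1.94, and -3.71, and DHI values were -2.34, -4.72, and -3.85. I/R 3 was in the Sham range, and DHI 1 was level with I/R 1. The difference in I/R was 1.38 ± 0.65 (SE, limma adjusted p = 0.124). Without I/R 3 it was 1.91 and Gpx3 was also called.

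Gpx4 encodes the peroxidase that reduces lipid peroxides in membranes and guards cells from ferroptosis. The brighter probe read 5.57, 5.55, and 5.58 in Sham, 5.27, 5.12, and 5.21 in I/R, and 5.38, 5.85, and 5.55 in DHI. On this scaling the I/R arrays were the lowest 3 of the 9. The log2 fold change in I/R was -0.37 ± 0.16 (SE, adjusted p = 0.0957 by limma, unadjusted p under 0.05). The dimmer probe gave -0.35 ± 0.14, so both stretches of the transcript read alike and neither reached the FC threshold. For the brighter probe the difference was -0.17 without scaling between arrays (limma unadjusted p = 0.339). Under normexp background correction it was also -0.17 (limma unadjusted p = 0.214).

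Glutamate-cysteine ligase makes the dipeptide from which glutathione is built. Gclc, the catalytic subunit, read 0.84, 0.77, and 0.55 in Sham, 0.67, 0.79, and 0.54 in I/R, and 0.77, 0.47, and 0.57 in DHI. The 3 groups overlapped throughout. Its difference in I/R was -0.05, with a 95% confidence interval from -0.41 to 0.30 (limma adjusted p = 0.793), which leaves out a 1.5-fold change in either direction. Gclm, the modifier subunit, had intensities of 2.61 to 7.37 and on no array was it well above background. Its probe has a GC content of 15%, with no probe of the array lower, with 51 of its 60 bases A or T, and what part this plays was not tested. No level of Gclm is given.

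Nqo1 encodes a reductase of quinones that uses NADH or NADPH and is a much used marker of NRF2 activity. Its Sham values were -2.49, -2.92, and -2.82, its I/R values -1.48, -1.64, and -1.91, and its DHI values -1.75, -2.95, and -2.81. The I/R arrays were all above Sham, DHI 1 was in the I/R range, and the other DHI arrays were in or just below the Sham range. Nqo1 rose by 1.07 ± 0.32 (SE, 2.10-fold, adjusted p = 0.0423 by limma).

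These adjusted p-values lay just under their threshold. Without any 1 of the Sham arrays, I/R 1, I/R 2, or DHI 3, 0 of the 9 members passed the adjusted p of limma, while 4 or 5 passed the unadjusted thresholds in each of these fits. The loss ran over the whole array, where 0 to 3 probes were called at the adjusted p in these fits. Without Sham 1 it was 0, so that the adjusted calls of the pathway genes below were all lost as well. Without I/R 3 or without DHI 1, 5 members passed it (the 4 above and Gpx3), beside 42.8% and 43.1% of all probes.

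**Figure D2:**
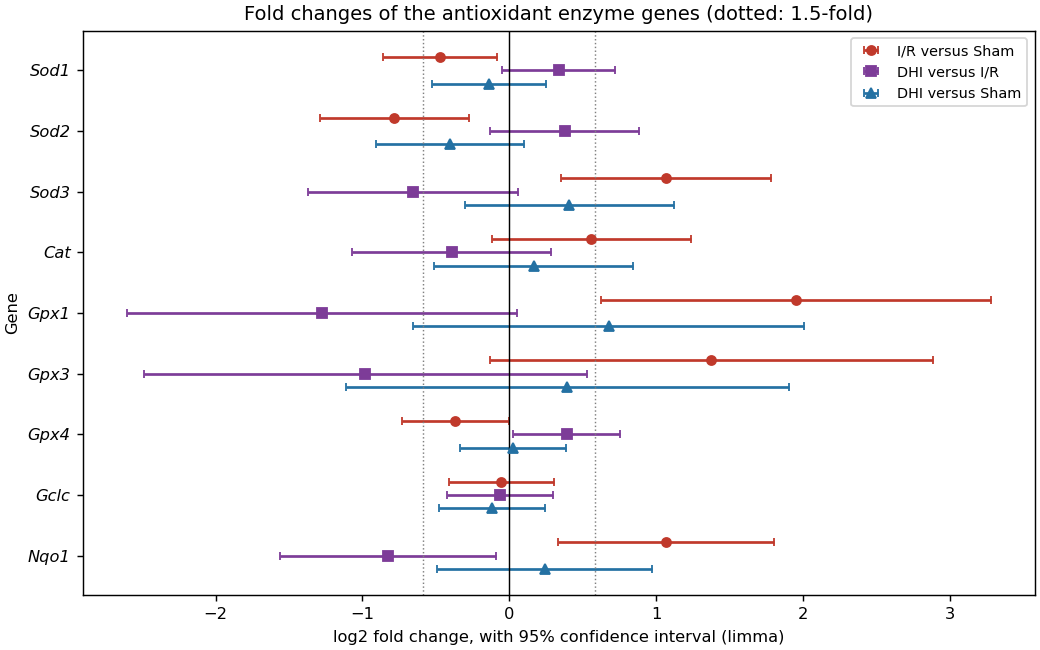
Log2 fold change of the 9 tested genes in the 3 comparisons, with 95% confidence intervals from limma (n = 3 arrays per group). Dotted lines mark 1.5-fold. In I/R versus Sham the intervals of Sod3, Gpx1, and Nqo1 lie above 0 and those of Sod1, Sod2, and Gpx4 below it. The DHI versus I/R values of Sod1, Sod2, and Gpx4 change sign without scaling between arrays and under normexp background correction.

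In DHI versus I/R, which asks what the injection changed in injured brain, 1 of the 9 members was called at the unadjusted thresholds, against 21.9% of all probes, and it was Nqo1, which was lower in DHI. With the adjusted p of limma 0 of the 9 were called, against 0.00421% of all probes, and 2 of the 9 had an unadjusted p under 0.05. The log2 fold change of Nqo1 was -0.83 ± 0.32 (SE, limma adjusted p = 0.196), and DHI 1 lay among the I/R arrays. It was not called in the methods' t-test, nor when any 1 of I/R 1, I/R 2, DHI 2, and DHI 3 was left out.

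Of the genes with positive differences in I/R, of which Gpx3 was not called, Gpx1 differed by -1.28 ± 0.58 (SE, limma adjusted p = 0.200) in DHI, Gpx3 by -0.98 ± 0.65 (adjusted p = 0.311), and Sod3 by -0.66 ± 0.31 (adjusted p = 0.206). Their DHI arrays overlapped the I/R arrays through DHI 1 in each case. The genes that were lower in I/R had differences of 0.34 ± 0.17 for Sod1, 0.38 ± 0.22 for Sod2, and 0.39 ± 0.16 for Gpx4, with limma adjusted p of 0.218, 0.259, and 0.196, and all 3 had the opposite sign without scaling and under normexp correction. For 2 members, Sod1 and Gpx4, every DHI array was above every I/R array on this scaling, while 9.54% of all probes had groups that did not overlap. The median log2 fold change of the members was -0.39, and that of all probes was 0.10.

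The place of single arrays shows what the DHI means hide. DHI 1 was nearer to the I/R mean than to the Sham mean for 8 of the 9 members, and it lay within the I/R range for 7. DHI 2 and DHI 3 were each nearer to the Sham mean for 8 of the 9. For Nqo1, with the Sham mean at 0% and the I/R mean at 100%, DHI 1 lay at 92.7%, DHI 2 at -19.0%, and DHI 3 at -5.94%. I/R 3 was the I/R array nearest to Sham for 7 of the 9. The same order of arrays was seen over all tested probes, as given above.

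**Figure D3:**
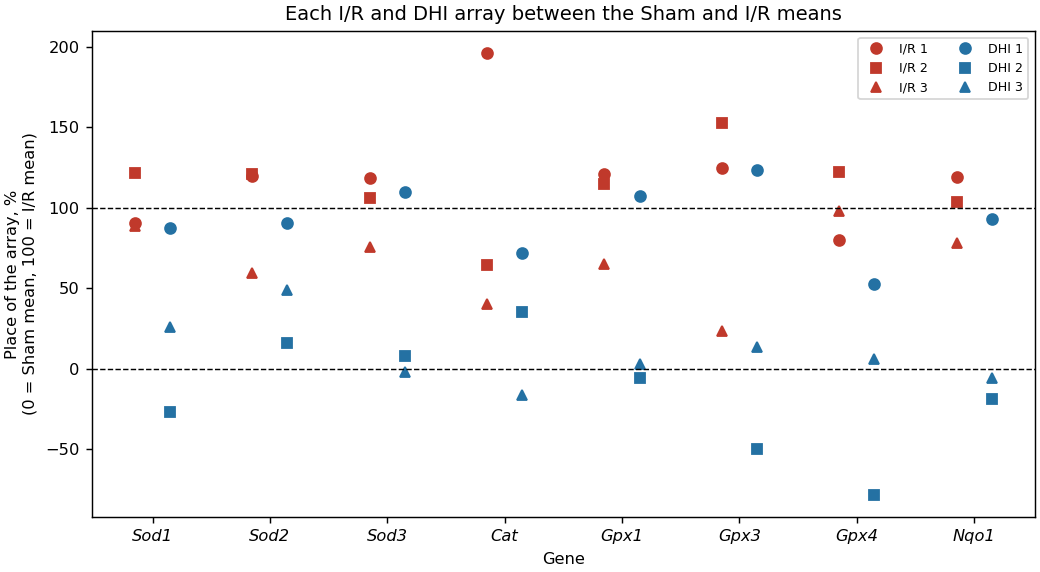
Place of each I/R array (red) and DHI array (blue) on a linear scale of log2 values from the Sham mean (0%) to the I/R mean (100%), for the 8 members other than Gclc, whose 2 means nearly coincide. DHI 1 (blue circles) is the DHI array closest to the I/R side in all 8, and for Nqo1 it lies at 92.7%.

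Without DHI 1, 4 of the 9 members passed the adjusted p in DHI versus I/R, against 40.0% of all probes in that fit. These were Gpx1 (-1.99, limma adjusted p = 0.0055), Sod3 (-1.04, adjusted p = 0.00493), Nqo1 (-1.20, adjusted p = 0.00508), and Gpx3 (-1.63, adjusted p = 0.0462), all lower in DHI. With I/R 3 left out as well, 5 of the 9 passed, against 49.5% of all probes, with Sod2 (0.69, limma adjusted p = 0.0166) added as higher in DHI. That second omission was chosen after the data were seen. The labels give no ground for leaving out either array.

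In DHI versus Sham, 0 of the 9 members were called by limma at the unadjusted thresholds, against 3.58% of all probes, and 0 at the adjusted p, against 0%. None had an unadjusted p under 0.05, and the methods' t-test called 0 as well. The arrays overlapped for all 9 members, whereas 18.6% of all probes did not overlap. Sod2 had the smallest p of the 9, with a difference of -0.40 ± 0.22 (SE, adjusted p = 0.709 by limma). The intervals were wide for the genes on which DHI 1 stood apart. For Gpx1 the difference was 0.68 with a 95% interval from -0.65 to 2.01, and without DHI 1 it was -0.03. The median of the members was 0.17 and that of all probes 0.02.

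The wider pathway was read from 7 lists of genes for glutathione, glutathione S-transferases, thioredoxins and peroxiredoxins, NRF2 and its regulators, NADPH supply and other NRF2 targets, copper and selenium supply, and metallothioneins. Of their 83 genes 79 were on the array and 77 were tested. In I/R versus Sham 28 were called higher and 8 lower, which is 46.8% of those tested beside the array's 43.1%, and with the adjusted p 19 were higher and 5 lower (31.2%, beside 31.5% of the array). The lower calls depended on the scaling, with 32 higher and 2 lower without scaling and 30 and 3 under normexp. The median of the 77 was 0.39 on the log2 scale. Of the 74 genes well above background on all 9 arrays, 26 were called higher and 7 lower at the unadjusted thresholds. In DHI versus I/R 3 were higher and 11 lower at the unadjusted thresholds (18.2%, beside 21.9% of the array), 0 passed the adjusted p, and the median was -0.29. These counts moved widely, to 0 and 37 without scaling, 1 and 32 under normexp, 8 and 31 without DHI 1, 0 and 0 without DHI 2, and 1 and 0 in the methods' t-test. In DHI versus Sham 0 were called.

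**Figure D4:**
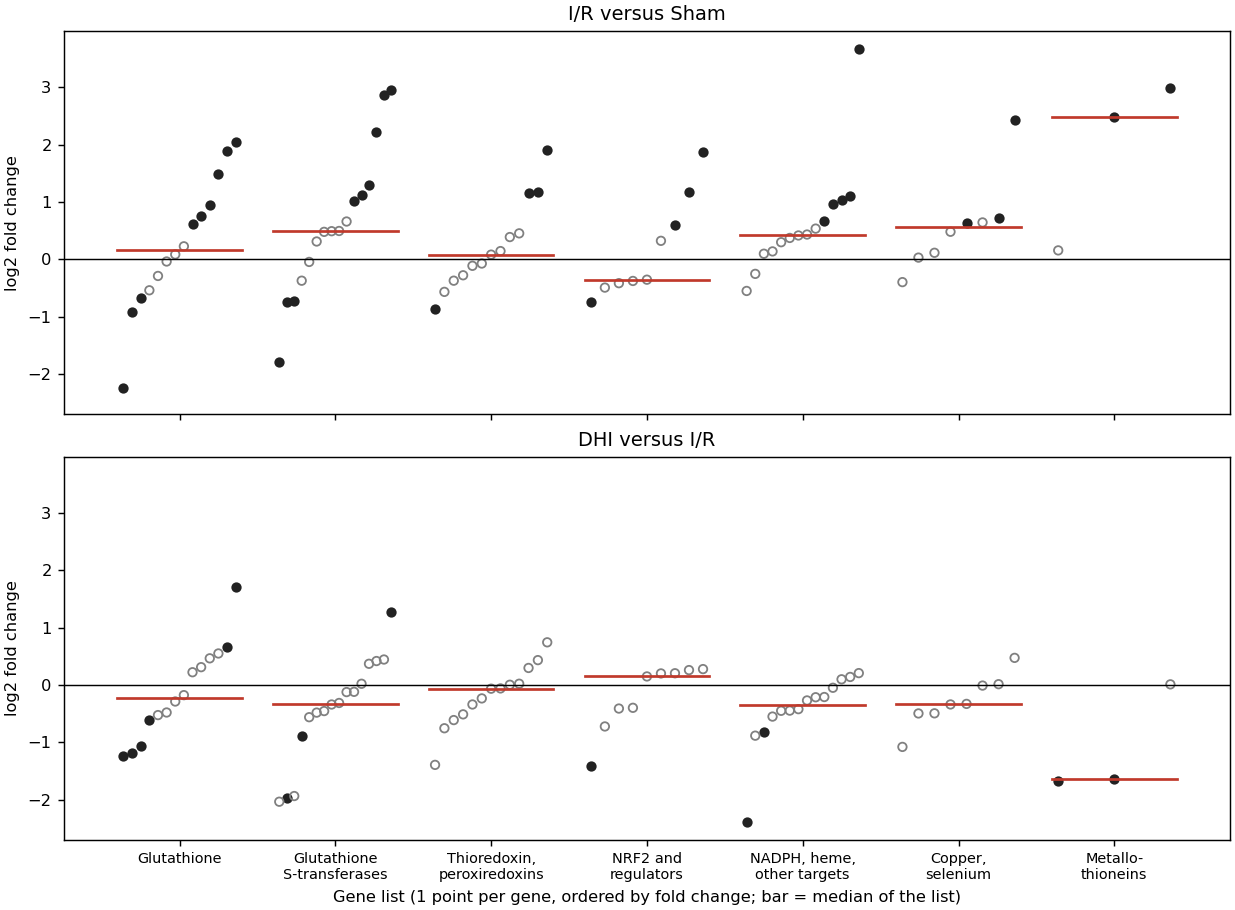
Log2 fold changes of the 77 tested genes of the pathway in I/R versus Sham (top) and DHI versus I/R (bottom), with 1 point per gene. Filled points passed the unadjusted thresholds of limma and the red bar is the median of the list. In the top panel 28 filled points lie above 0 and 8 below it, and in the bottom panel 3 and 11.

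Nfe2l2 itself rose in I/R. It lay between -0.53 and -0.40 on the Sham arrays, between 0.91 and 1.75 on the I/R arrays, and at 1.33, -0.89, and -0.43 on the DHI arrays. The groups of Sham and I/R did not overlap, and Nfe2l2 rose by 1.86 (adjusted p = 0.0405 by limma). DHI differed by -1.41 from I/R (adjusted p = 0.196) and by 0.46 from Sham. Of the 9 genes of the list, 3 were called higher and 1 lower, beside 43.1% of all probes called, with 1 higher and 0 lower under normexp. Bach1, a repressor of NRF2 target genes, was 1 of the 3, with a difference of 1.18, but it entered the test only through the I/R group, since it was well above background on 2 Sham arrays and 1 DHI array, and no test is read from it. Among the 8 genes well above background on all 9 arrays, 2 were called higher and 1 lower. Cul3, the scaffold of the ligase that marks NRF2 for degradation, fell by 0.75 (adjusted p = 0.0405) but was not called without scaling or under normexp. Keap1, the adaptor of that ligase, differed by -0.42 (adjusted p = 0.0573), which is under the FC threshold, with 0.26 in DHI versus I/R and -0.16 in DHI versus Sham.

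Of the 14 tested genes for NADPH supply and other NRF2 targets, 12 had positive differences in I/R, with a median of 0.42. The median of all probes was -0.10. In this list 5 were called higher and 0 lower, beside 43.1% of all probes called. Hmox1, the heme oxygenase that frees iron from heme, was the most changed gene of the 7 lists. It read -2.87, -2.98, and -2.77 in Sham, 1.30, 1.18, and -0.07 in I/R, and 0.68, -3.04, and -2.42 in DHI. Sham and I/R did not overlap, and DHI 1 again lay in the I/R range. The rise was 3.68 (adjusted p = 0.0396 by limma), and DHI differed from I/R by -2.39 (adjusted p = 0.196) and from Sham by 1.28.

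Smaller rises were seen in the same list. Ftl, the light chain of the iron store ferritin, rose by 0.96 (limma adjusted p = 0.0406), and Taldo1, transaldolase of the pentose phosphate pathway, by 0.66 (adjusted p = 0.0477).

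In the glutathione list 6 of 14 were called higher and 3 lower, beside 43.1% of all probes called. Of the 13 well above background on all 9 arrays, 5 were called higher and 3 lower. Slc7a11, the cystine importer that supplies glutathione synthesis, lay between 0.02 and 0.31 in Sham and between 1.60 and 1.75 in I/R. It read 1.70 on DHI 1 and -0.22 and 0.43 on DHI 2 and 3. The rise in I/R was 1.49 (limma adjusted p = 0.0407), and DHI differed by -1.06 from I/R (adjusted p = 0.196) and by 0.42 from Sham. Gpx7 and Gpx8, peroxidases of the endoplasmic reticulum, rose by 2.04 and 1.90 (adjusted p = 0.0396 for both). Ggt7, of the gamma-glutamyltransferase family, fell by 2.24 (adjusted p = 0.0396).

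Glutathione S-transferases, which attach glutathione to lipids and foreign compounds, had 6 of 16 called higher and 3 lower, beside 43.1% of all probes. Of the 15 well above background on all 9 arrays, 6 were called higher and 2 lower. The microsomal forms were the most changed, with rises of 2.95 for Mgst1 (limma adjusted p = 0.0432) and 2.87 for Mgst2 (adjusted p = 0.0453) and a fall of 1.78 for Mgst3 (adjusted p = 0.0405). Among 13 genes for thioredoxins and peroxiredoxins 3 were higher and 1, Srxn1, lower, beside the same 43.1% of all probes. Txnip, an inhibitor of thioredoxin, rose by 1.90 (adjusted p = 0.0472) and Prdx4, the peroxiredoxin of the endoplasmic reticulum, by 1.18 (adjusted p = 0.0442). Prdx1, a cytosolic peroxiredoxin, rose by 1.16 at the unadjusted thresholds only (limma adjusted p = 0.0623). Txnrd1, the cytosolic thioredoxin reductase, differed by 0.14 (adjusted p = 0.557), with -0.24 in DHI versus I/R and -0.09 in DHI versus Sham. Srxn1, which repairs oxidized peroxiredoxins, passed the unadjusted thresholds with -0.87 (limma adjusted p = 0.0812), with 0.74 and -0.13 in the DHI comparisons. Its groups overlapped, since I/R 3 at 0.99 was above Sham 3 at 0.87. The call was lost without scaling, under normexp, in the methods' t-test, with the replicate block, and without any 1 of Sham 2, I/R 1, and I/R 2.

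Of 8 genes for copper and selenium supply 3 were called higher and 0 lower, beside 43.1% of all probes called. Ccs, the chaperone that loads copper into SOD1, rose by 0.63 at the unadjusted thresholds (limma adjusted p = 0.0537), while the difference of Sod1 was -0.47. Atp7a, a copper pump, rose by 2.43 at the same thresholds (adjusted p = 0.0556), and Secisbp2, which selenoprotein synthesis needs, by 0.72 (adjusted p = 0.0496). Of 3 metallothioneins, small metal-binding proteins, 2 were called higher, Mt1a by 2.49 and Mt2A by 2.99 (adjusted p = 0.0404 and 0.0396). These genes are close paralogs, which 1 probe may not tell apart.

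NRF2 binds the antioxidant response element, whose core TGACNNNGC was searched on both strands of RefSeq promoter windows (GRCr8, 250 bases before to 50 after the start). Of the 10 members 9 had a window, with none for Sod3, and 2 of the 9 held a match, against 13.1% of 27457 genes. Of the pathway genes with a window, 19 of 67 (28.4%) held one. Some of these genes were listed because they are known NRF2 targets, so no result is read from this share. The matches are shown on the gene's strand with the core in capitals, which here runs on the opposite strand.
Sod2, chr1:50050185-50050213, minus strand, 35 bases before the start: ggcgctgccgGCAGGGTCAgcgcctagct
Gclm, chr2:213031953-213031981, plus strand, 172 bases before the start: tgcggtttctGCTTAGTCAttgtcttcca
Sod2 was the member that fell in I/R and Gclm was not measured, and a match is a description of letters, not a site of binding. The windows of Gpx1 and Nqo1 held no match, which says only that the core is not in these 300 bases.

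Sod2 had the smallest F-test p of the members over the 3 groups (limma adjusted p = 0.103). Over the 9 arrays, the 4 symbols of 15587 whose values followed Sod2 most closely were Hars (Pearson's r 0.996), Suds3 (0.995), Mdh2 (0.994), and Gemin6 (0.990). Hars encodes histidyl-tRNA synthetase and Mdh2 the malate dehydrogenase of mitochondria. The arrays of a group share their treatment and slide, so these correlations describe this set of 9 arrays only.

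Cell type markers moved with the same arrays. The tissue read as brain, since 8 of 8 markers each of neurons, astrocytes, oligodendrocytes, microglia, and endothelial cells were well above background on every array, and none was at 0. The summed signal of the 8 microglia and macrophage markers, where 1 is the 75th percentile of an array, was 18.6 to 22.4 in Sham, 141 to 353 in I/R, and 199.7, 25.6, and 31.0 on DHI 1, 2, and 3. Of these 8, 7 rose in I/R, and all 7 passed the adjusted p of limma. The remaining marker had a negative difference and was not called. The 8 neuron markers summed to 63.7 to 72.1 in Sham, 5.97 to 31.2 in I/R, and 20.5, 66.7, and 52.1 on the DHI arrays, and 8 of 8 were called lower in I/R (7 by the adjusted p). DHI 1 was thus between I/R arrays for both lists, as it was for Gpx1, Sod3, and Nqo1. What part cell content has in the fold changes of the antioxidant enzymes was not tested.

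The other lists moved in other ways. Astrocyte markers summed to 178 to 187 in Sham, 158 to 201 in I/R, and 153 to 179 in DHI, but of the 8 genes 4 were called higher in I/R (3 by the adjusted p) and 2 lower, with a median of 0.54. Their mean log2 difference from Sham was 0.54 to 0.84 on the I/R arrays, 0.49 on DHI 1, and 0.04 and 0.09 on DHI 2 and DHI 3. Oligodendrocyte markers summed to 148 to 173, 115 to 168, and 160.1 to 207. Endothelial markers ranged from 5.49 to 6.68, from 7.08 to 11.3, and from 5.98 to 7.70. The 5 red blood cell markers on the array summed to 4.62 to 38.6 in Sham, 2.87 to 4.14 in I/R, and 9.39 to 49.99 in DHI. In I/R 4 of the 5 were called lower, none by the adjusted p, and Slc4a1, named after its values were seen, was called higher by the adjusted p too. Over the mean of the 5, Sham 1 (-1.41) was below all I/R arrays (-1.29 to -1.19). The 7 choroid plexus markers summed to 0.49 to 1.15 in Sham. They reached 94.4 on I/R 3, against 1.35 and 2.48 on I/R 1 and I/R 2, and 141, 7.54, and 74.9 on DHI 1, 2, and 3, and 5 to 7 of them were above background on an array. The 6 neutrophil markers ranged from 0.055 to 0.086, from 0.12 to 0.24, and from 0.11 to 0.15, with 3 or 4 of them above background. Their part in the results was not tested either.

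**Figure D5:**
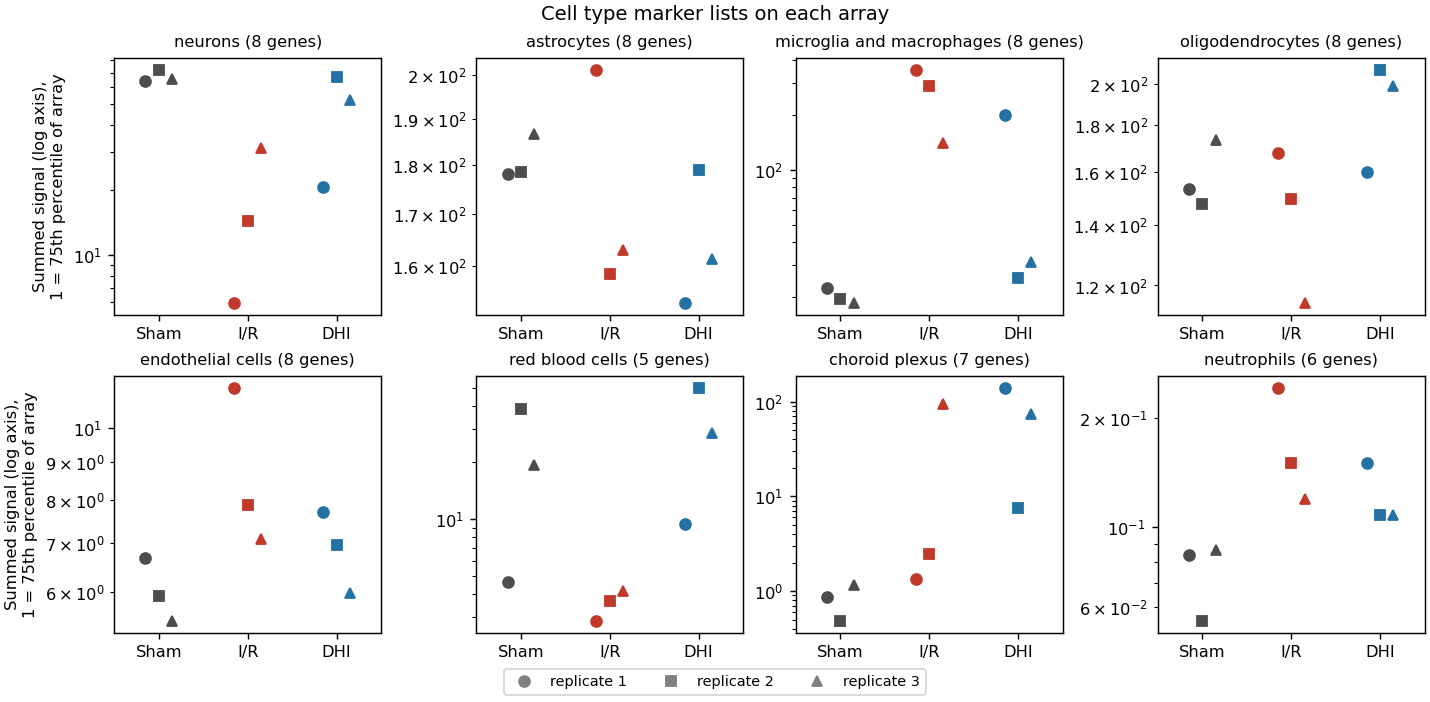
Summed linear signal of 8 cell type marker lists on each array, on log axes, where 1 is the 75th percentile of the array (circle, square, and triangle for replicates 1, 2, and 3). The microglia list lies between 18.6 and 22.4 in Sham and between 141 and 353 in I/R, with DHI 1 at 199.7. Neuron markers run the other way.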

How the data were processed

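The authors deposited 1 Agilent Feature Extraction file per array (version 10.7.1.1, per the labels), with spot intensity on a linear scale, background-corrected and unscaled between arrays. A deposited series matrix of log2 values served as an alternative. Control and outlier spots were dropped, the log2 processed signals of a probe's spots were averaged, and the log2 of each array's 75th percentile was subtracted. A probe entered the test if every array of some group had it well above background (23747 of 30367 probes). Group means were fitted in 1 model over 9 arrays (R 4.3.3, limma 3.58.1, lmFit and eBayes), with Benjamini-Hochberg adjustment over all tested probes. The methods give FC over 1.5 and p under 0.05 and no normalization. Figures were drawn with matplotlib 3.10.9. The steps were tested on simulated data.

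Groups came from the sample labels. The members, gene lists, and tests were chosen with earlier results of these data known. Named are all members, up to 3 genes per pathway list with the largest absolute log2 fold change in I/R versus Sham among those passing the adjusted p (or the unadjusted thresholds where fewer than 3 passed), 6 set genes (Nfe2l2, Keap1, Hmox1, Slc7a11, Txnrd1, Srxn1), and the 5 symbols most like the member with the smallest F-test p, of which 1 is not reported here. Alternatives were other normalizations (quantile, none, normexp with offset 50, the series matrix), other filters on dim probes, models with array weights, with a replicate block, or of the compared groups alone, the methods' t-test, and each array left out. Leaving out I/R 3 and DHI 1 together was added after the data were seen. Precision is limited by having 3 arrays in a group.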

Additional observations from a re-analysis of the deposited data

How the results depend on the processing

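With 3 arrays per group, a DHI array that lay among the I/R arrays, and adjusted p-values just under their threshold, the counts of called members moved with the processing, and the cause was not tested. In I/R versus Sham the 4 calls at the unadjusted thresholds stayed between 4 and 6 under every setting run, and Sod2, Sod3, Gpx1, and Nqo1 were among them each time. With the adjusted p the count of 4 became 0 without scaling, 1 without a filter on dim probes, 3 under normexp (without Sod2), 3 in the methods' t-test, 5 with array weights, and 0 to 5 when 1 array was left out. In DHI versus I/R the count of 1 at the unadjusted thresholds became 4 without scaling (31.3% of all probes were called), 4 under normexp (22.6%), 4 with array weights (51.4%), 0 in a model of the 2 groups compared (9.05%), 0 in the methods' t-test (1.97%), 0 to 4 when 1 array was left out (4 without DHI 1), and 5 without both I/R 3 and DHI 1. With the adjusted p the count of 0 became 4 with array weights, 0 to 4 when 1 array was left out, and 5 without both arrays. The weights ran to 131 for DHI 3 against 0.061 for DHI 1, so that setting reads mostly 1 DHI array. In DHI versus Sham the count of 0 became 1 without scaling and 1 under normexp (Sod2 in both).

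Whether the replicate numbers pair the samples could not be settled with 3 arrays per group. The deviations of same-numbered arrays correlated over 0.1 in 4 of 9 pairs (-0.34 to 0.48), and 4 of 9 arrays correlated best with their own number. With the replicate number as a block, 3 members were called at the unadjusted thresholds in DHI versus I/R, and the count of 4 in I/R versus Sham was the same.

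Differences changed sign in the following cases. Gclc in I/R versus Sham was 0.025 under quantile normalization, 0.14 without scaling, 0.11 under normexp, 0.025 in the series matrix, 0.094 with array weights, 0.011 without both arrays, and -0.14 to 0.011 with 1 array left out. In DHI versus I/R, Sod1, Sod2, and Gpx4 were -0.12, -0.082, and -0.069 without scaling and -0.055, -0.025, and -0.023 under normexp, and Gclc was -0.14 to 0.0025 with 1 array left out. No scaling moved the median of all probes in that comparison from 0.10 to -0.36, and these 3 genes stayed above that median. In DHI versus Sham, Gpx4 was -0.073 under quantile normalization, -0.24 without scaling, -0.20 under normexp, -0.079 in the series matrix, -0.020 with array weights, and -0.11 to 0.13 with 1 array left out. Cat was -0.095 without scaling, -0.0012 under normexp, -0.17 with array weights, and -0.0096 to 0.38 with 1 array left out. Nqo1 was -0.023 without scaling and Sod3 -0.0059 with array weights. With 1 array left out, Sod1 was -0.27 to 0.0036, Gpx1 -0.031 to 1.08, Gpx3 -0.25 to 0.94, and Nqo1 -0.13 to 0.46. Without both arrays these 4 were 0.0036, -0.031, -0.25, and -0.13. The median of the members was -0.095 without scaling, -0.0012 under normexp, -0.020 with array weights, -0.031 without both arrays, and -0.031 to 0.30 with 1 array left out.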
